A study of Mus musculus with 4 samples.

Results

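The 10 genes described here are imprinted genes of mouse growth control and noncoding RNA: Igf2, Dlk1, Peg3, Plagl1, Ndn and Impact, which are expressed from the paternal allele, and H19, Meg3, Grb10 and Cdkn1c, which are expressed from the maternal allele in most tissues. They were chosen by symbol and found by matching the Ensembl identifiers of the deposited table to the mm10 GENCODE annotation, 10 genes of 53379 in all. The data were RNA-seq gene counts of cultured cortical astrocytes, taken at day 14 in vitro from 2 wild-type (WT) and 2 Npas3-/- samples. All 4 samples were of the C57BL/6 strain and derived from the cortex of newborn mice, and neurons and other cells had been shaken off the flasks during the first week. How the Npas3-/- allele was made is not given in the sources used here, nor is the number of animals per sample, so that the p-values reflect the variation among these samples alone, and that variation may be technical. The question is how the imprinted genes differ in level between WT and Npas3-/- astrocytes. Library totals lay between 82965565 and 86932708 counts.

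In genomic imprinting the copy of a gene from a single parent supplies most of its transcript. Control regions carry DNA methylation that was set in the egg or sperm and that differs between the parental copies. Imprinted genes lie in clusters that share control regions, and many of them regulate fetal growth, with several paternally expressed genes promoting growth (Igf2, Dlk1, Plagl1) and several maternally expressed genes restraining it (H19, Grb10, Cdkn1c). In the brain, imprinted genes are known from neural progenitors, neurons and glia, and from the meninges and choroid plexus. The counts do not separate the parental alleles, so the terms paternally and maternally expressed are background knowledge here and not a measurement.

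The start regions of 5 of these genes are shown because the first 4 belong to members that fell in Npas3-/- and the last to Ndn, whose values were higher there. Each is the RefSeq promoter window on GRCm38.p6, from 250 bases before to 50 bases after the start, with CpG dinucleotides, the sites that imprinting methylates, in capitals.
Plagl1 (chr10:13090582-13090881, plus strand): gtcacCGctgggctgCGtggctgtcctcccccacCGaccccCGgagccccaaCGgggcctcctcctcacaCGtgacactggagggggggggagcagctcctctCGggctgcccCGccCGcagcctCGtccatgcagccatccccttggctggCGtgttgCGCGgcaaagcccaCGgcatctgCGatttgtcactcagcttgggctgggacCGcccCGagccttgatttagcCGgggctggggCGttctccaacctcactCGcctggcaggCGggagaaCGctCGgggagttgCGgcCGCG
Peg3 (chr7:6730370-6730669, minus strand): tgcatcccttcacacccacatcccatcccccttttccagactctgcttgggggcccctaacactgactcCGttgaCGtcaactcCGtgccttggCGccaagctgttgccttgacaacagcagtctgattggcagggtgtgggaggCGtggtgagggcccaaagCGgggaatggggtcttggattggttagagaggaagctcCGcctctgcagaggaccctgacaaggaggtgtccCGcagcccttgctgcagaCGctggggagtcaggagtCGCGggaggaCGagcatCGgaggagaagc
Grb10 (chr11:12037371-12037670, minus strand): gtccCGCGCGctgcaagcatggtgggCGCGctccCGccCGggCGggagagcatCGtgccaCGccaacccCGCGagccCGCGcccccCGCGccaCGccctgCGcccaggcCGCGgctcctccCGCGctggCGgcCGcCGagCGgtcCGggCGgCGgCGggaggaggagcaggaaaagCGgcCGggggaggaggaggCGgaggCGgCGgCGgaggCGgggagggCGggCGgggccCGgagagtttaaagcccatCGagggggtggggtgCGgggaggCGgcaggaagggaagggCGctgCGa
Meg3 (chr12:109540746-109541045, plus strand): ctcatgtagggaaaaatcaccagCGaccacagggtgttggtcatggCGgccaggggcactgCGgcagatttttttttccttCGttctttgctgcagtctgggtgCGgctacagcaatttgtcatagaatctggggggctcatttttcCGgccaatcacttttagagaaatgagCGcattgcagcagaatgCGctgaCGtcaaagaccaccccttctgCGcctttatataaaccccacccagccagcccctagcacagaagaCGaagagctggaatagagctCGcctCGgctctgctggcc
Ndn (chr7:62348027-62348326, plus strand): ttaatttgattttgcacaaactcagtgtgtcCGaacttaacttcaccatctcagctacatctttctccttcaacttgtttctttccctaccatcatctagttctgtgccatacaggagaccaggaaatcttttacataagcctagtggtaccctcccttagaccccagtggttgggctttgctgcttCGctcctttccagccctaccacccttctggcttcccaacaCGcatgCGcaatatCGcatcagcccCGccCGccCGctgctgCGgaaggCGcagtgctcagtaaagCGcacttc
These windows held 26 CpG (Plagl1), 13 (Peg3), 45 (Grb10), 13 (Meg3) and 11 (Ndn), against a median of 7 over the 32851 promoter windows of the same length. At least as many CpG as in the Grb10 window were found in 1.93% of all windows, as many as in Plagl1 in 16.9% and as many as in Peg3 or Meg3 in 37.9%. The windows of members that are not shown held 9 (Grb10), 1 (Meg3), 9 (Dlk1) and 2, 14, 24 and 7 CpG (Igf2). The Peg3 window spans the start of Usp29 (6730578), a neighbouring imprinted gene transcribed the other way. GGGGCCCC, a palindromic core that PLAGL1 binds, occurred in 1 of the 12 windows of members, that of Peg3, and in 1.08% of all windows. TATAAA, searched on both strands, occurred in the Meg3 window shown and in 13.6% of all windows. In all, 7 members had at least 1 window. The 3 members without a window in the table were H19, Cdkn1c and Impact.

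Npas3, the targeted gene, had 57.8 and 93.4 CPM (CPM, read counts scaled to a common library size) in WT and 24.8 and 18.0 CPM in Npas3-/-, where here and below replicate 1 is given before replicate 2. Its log2 fold change was -1.82 (adjusted p = 0.0181), and -0.65 (adjusted p = 0.111) with the correction described next. The libraries also differed in composition: the count-weighted GC content of transcripts was 51.5% and 50.2% in WT, against 53.2% and 53.6% in Npas3-/-. A second fit, in which a smooth trend over transcript GC content and length was removed from every library, is therefore given beside the uncorrected values as the corrected value. Real differences that run along GC content or length would be taken out by it too. All 10 astrocyte markers were detected, 3 rose (Gfap, Glul and Aldoc) and 3 fell (Aqp4, Slc1a2 and Gja1), and S100b stayed between 0.145 and 0.792 CPM. Their summed level, 3899 and 4944 CPM in WT and 6922 and 7126 CPM in Npas3-/-, thus hides opposite changes. Summed neuronal markers were at 170 to 312 CPM in WT and 201 to 202 CPM in Npas3-/-. Stmn2 and Tubb3 supplied most of this sum and did not pass. Of 8 tested neuronal markers 3 fell (Syt1, Map2 and Gad2) and 0 rose, and with the correction Map2 alone fell. Map2 went from 40.7 ± 6.07 to 3.12 ± 1.85 CPM (SD, n = 2; adjusted p = 0.0130; corrected adjusted p = 0.0233). Meningeal and fibroblast markers summed to 379 to 449 CPM in WT and 351 to 442 CPM in Npas3-/-. Mural cell markers summed to 663 to 2052 and 2143 to 2263 CPM. Acta2 and Tagln supplied most of the mural sum and did not pass, while the pericyte marker Rgs5 fell from 7.64 ± 5.41 to 0.349 ± 0.0527 CPM (SD, n = 2; adjusted p = 0.0146; corrected adjusted p = 0.0344). Choroid plexus markers summed to 22.0 to 25.4 CPM and endothelial markers to 16.1 to 21.9 CPM over the 4 libraries. Microglial markers summed to 46.7 and 49.1 CPM in WT and 69.2 and 69.6 CPM in Npas3-/-, and of 9 tested 0 passed in the uncorrected fit. The single markers in this paragraph were named after their values were seen. Oligodendrocyte lineage markers summed to 1490 to 1640 CPM in WT and 1790 to 2186 CPM in Npas3-/-. In bulk samples, fewer cells of a type and less RNA per cell cannot be told apart.

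All 10 imprinted genes passed the filter on low counts, Igf2 through its WT counts alone. In Npas3-/-, 6 of the 10 fell (Igf2, Meg3, Peg3, Plagl1, Grb10 and Impact) and 0 rose at an adjusted p below 0.05 (quasi-likelihood test of edgeR, Benjamini-Hochberg adjustment across 18838 genes). Igf2 is the least secure of the 6, and 5 fell when its reads were summed with those of an overlapping gene model. Among all tested genes 33.1% were called, 21.5% as lower and 11.6% as higher. Both Npas3-/- libraries lay below both WT libraries for the 6 genes that fell, as for 40.1% of tested genes, and above both for Ndn and Cdkn1c, as for 35.7%. The median log2 fold change was -1.43 over the 10 genes and -0.070 over all tested genes, where a negative value means lower in Npas3-/-. After correction for GC content and length 1 of the 10 fell (Impact) and 1 rose (Ndn), in a background of 8.37% called, 3.81% as lower and 4.56% as higher, and the median was -0.54 against -0.034 over all genes. Without Npas3-/- replicate 2 every call among all tested genes was lost, so that this loss is not particular to the members. A fit with a library left out leaves no replicate in that genotype. It cannot show whether a call rests on an individual library. The directions of the 6 genes that fell held in each such fit.

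**Figure D1:**
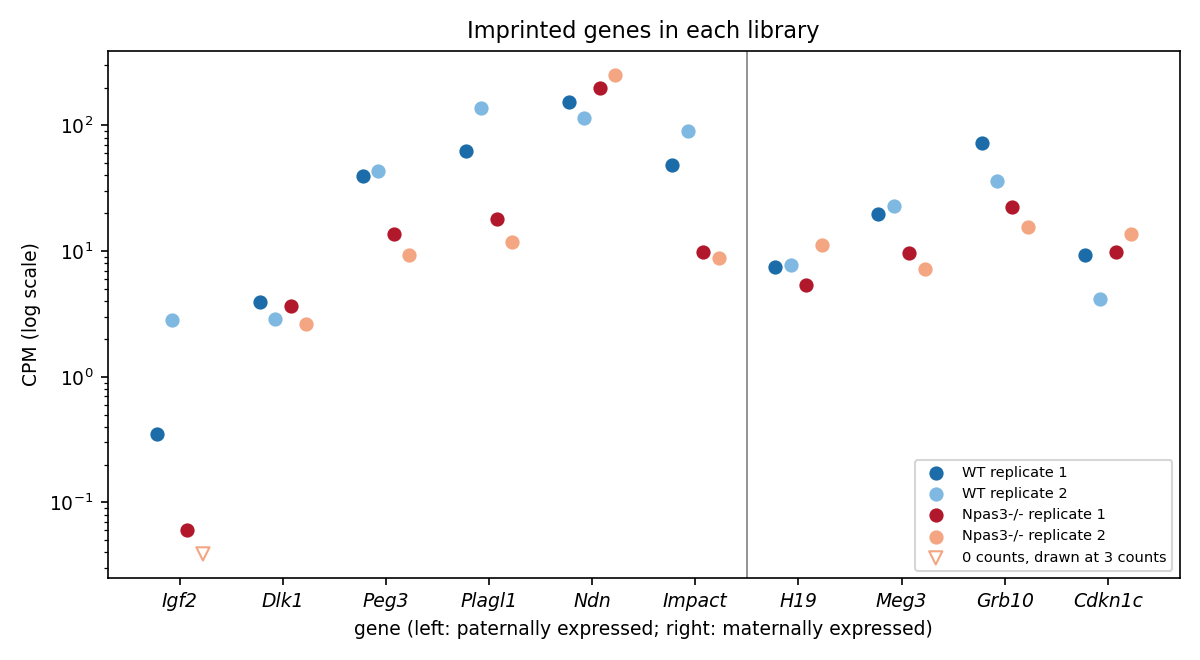
Level of each imprinted gene in CPM on a log axis, 1 point per library (blue, WT replicates 1 and 2; red and orange, Npas3-/- replicates 1 and 2), with a count of 0 drawn as an open triangle at 3 counts. Plagl1 spans from 11.7 to 138 CPM and Ndn from 115 to 253 CPM, with the genotypes separated in opposite directions.

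Plagl1 and Peg3 encode zinc finger proteins that act on transcription, and Plagl1 is known to bind regulatory regions of other imprinted genes, Igf2, H19 and Cdkn1c among them. Plagl1 (ENSMUSG00000019817.18, chromosome 10, 13060504 to 13131694) had 62.1 and 138 CPM in WT and 18.1 and 11.7 CPM in Npas3-/-. The lowest WT library was thus above both Npas3-/- libraries, and the WT libraries differed from each other by more than the Npas3-/- libraries did. It fell from 100.1 ± 53.7 to 14.9 ± 4.49 CPM (SD, n = 2), a log2 change of -2.75 (SE 0.46; adjusted p = 0.0166). With the correction its log2 fold change was -1.47 (SE 0.33; adjusted p = 0.0521). Peg3 (ENSMUSG00000002265.16, chromosome 7, 6703892 to 6730431) had 39.7 and 43.6 CPM in WT and 13.7 and 9.38 CPM in Npas3-/-. Its libraries agreed closely within each genotype, and it fell from 41.6 ± 2.77 to 11.6 ± 3.09 CPM (SD, n = 2), a log2 change of -1.85 (SE 0.28; adjusted p = 0.0148). With the correction the value was -0.39 (SE 0.18; adjusted p = 0.214).

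Impact encodes a regulator of the translational stress kinase GCN2, which is abundant in neurons. Impact (ENSMUSG00000024423.5, chromosome 18) had 48.5 and 89.7 CPM in WT and 9.79 and 8.79 CPM in Npas3-/-. The Npas3-/- libraries were close to each other and both were far below the lower WT library. It fell from 69.1 ± 29.1 to 9.29 ± 0.705 CPM (SD, n = 2), to 13.4% of the WT level, with a log2 change of -2.89 (SE 0.36; adjusted p = 0.0130). Impact was the only member that fell in both fits, at -0.89 (SE 0.17; adjusted p = 0.0371) with the correction. That corrected call was lost without WT replicate 2 (adjusted p = 0.108), without Npas3-/- replicate 1 (adjusted p = 0.160) and without Npas3-/- replicate 2 (adjusted p = 0.199).

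Grb10 encodes an adaptor that binds insulin and IGF receptors and dampens their signal; it is maternally expressed in most tissues and glia and paternally expressed in neurons. Grb10 (ENSMUSG00000020176.17, chromosome 11, 11930508 to 12038683) had 72.2 and 36.3 CPM in WT and 22.3 and 15.7 CPM in Npas3-/-. Unlike Plagl1 and Impact, it was higher in WT replicate 1 than in WT replicate 2, and the genotypes did not overlap. It fell from 54.3 ± 25.4 to 19.003 ± 4.71 CPM (SD, n = 2), a log2 change of -1.51 (SE 0.40; adjusted p = 0.0395), and stood at -0.81 (SE 0.36; adjusted p = 0.196) with the correction. Its call was also lost without WT replicate 1 (adjusted p = 0.0902) and without Npas3-/- replicate 1 (adjusted p = 0.0767).

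Meg3 and Dlk1 are neighbours on chromosome 12, the chromosome of Npas3, and share one imprinting control region, which acts so that the noncoding RNA Meg3 comes from the maternal and the Notch ligand homologue Dlk1 from the paternal copy. Dlk1 (ENSMUSG00000040856.17, 109452823 to 109463336) starts 55.4 Mb beyond the end of Npas3, and Meg3 (ENSMUSG00000021268.17, 109541001 to 109571726) starts 77.7 kb beyond Dlk1. Meg3 had 19.9 and 23.0 CPM in WT and 9.57 and 7.19 CPM in Npas3-/-. The WT libraries were alike and both stood well above the Npas3-/- libraries, and Meg3 fell from 21.4 ± 2.21 to 8.38 ± 1.68 CPM (SD, n = 2), a log2 change of -1.35 (SE 0.29; adjusted p = 0.0253). With the correction it stood at -0.26 (SE 0.21; adjusted p = 0.473). The uncorrected call was lost without WT replicate 2 (adjusted p = 0.0603), without Npas3-/- replicate 1 (adjusted p = 0.0627) and with the replicate number as a block (adjusted p = 0.0685).

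Dlk1 showed no such separation, with 3.91 and 2.86 CPM in WT and 3.67 and 2.62 CPM in Npas3-/-. The genotypes overlapped, and the log2 fold change of -0.11 (SE 0.40; adjusted p = 0.859) was smaller than its error, as was the corrected value of -0.21 (SE 0.35; adjusted p = 0.736). Per kilobase of exon, the level of Meg3 was 1.59 and 2.51 times that of Dlk1 in the WT libraries and 0.816 and 0.858 times in the Npas3-/- libraries. The order of the neighbours on this scale was thus opposite in the genotypes, but the ratio has only 2 values on each side and was not tested, and with the correction the log2 changes of Meg3 and Dlk1 were nearly equal (-0.26 and -0.21). Rian, a noncoding RNA beyond Meg3 that hosts small nucleolar RNAs, fell from 24.4 ± 3.04 to 3.89 ± 0.413 CPM (SD, n = 2; log2 fold change -2.65, adjusted p = 0.0130), and it overlaps small RNA genes, so that shared reads are uncertain. Its transcript has 35.8% GC, and the corrected log2 fold change was -0.30 (adjusted p = 0.825). Mirg, the microRNA host further along, had 0.919 ± 0.484 CPM in WT and 0.919 ± 0.271 CPM in Npas3-/- (SD, n = 2), Dio3 at most 37 counts in any library and Rtl1 at most 13.

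Igf2, H19 and Cdkn1c lie in the imprinted region at the end of chromosome 7. Igf2 is a secreted growth factor, H19 a noncoding RNA that shares enhancers with Igf2 and is read from the other parental copy, and Cdkn1c an inhibitor of cyclin-dependent kinases that slows the cell cycle. Igf2 (ENSMUSG00000048583.16, 142650766 to 142666816) was near the limit of detection, with 31 and 267 counts in WT and 5 and 0 counts in Npas3-/-, or 0.349, 2.85, 0.0604 and 0 CPM, where a count of 0 in the last library allows up to 3 counts, or 0.0390 CPM. WT replicate 2 held most of the reads, and both Npas3-/- libraries were below the lower WT library. Its log2 fold change was -5.64 (SE 1.63; adjusted p = 0.0480), and -5.94 (SE 1.62; adjusted p = 0.0750) with the correction. Without WT replicate 2 it was -3.47 (adjusted p = 0.388), and without Npas3-/- replicate 1 the adjusted p was 0.0577.

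The Igf2 count may also depend on how reads of overlapping gene models were assigned, which the sources used here do not state. The model Gm49394 covers 3596 of the 5723 exonic bases of Igf2 on the same strand, and it had 109 and 0 counts in WT and 52 and 45 in Npas3-/-. The library with the most Igf2 counts was the one with 0 counts for Gm49394. Summed over both models, the locus had 140 and 267 counts in WT and 57 and 45 in Npas3-/-, or 2.21 ± 0.902 against 0.636 ± 0.0733 CPM (SD, n = 2). In a fit on these sums, added after the data were seen, the log2 fold change was -1.80 (SE 0.53; adjusted p = 0.0508), so that the direction was kept and the size was far smaller. Of 9 tested fibroblast and meningeal markers 2 fell (22.2%), the matrix genes Dcn and Col3a1, and 0 rose. Among all tested genes 21.5% were called lower and 11.6% higher. Dcn passed the filter on low counts through its WT counts alone. Only 3 of the 9 had a negative log2 fold change, the median was 0.25, and with the correction Col3a1 alone fell. Dcn, a proteoglycan gene, had 0.541 and 1.46 CPM in WT and 0.0604 and 0 CPM in Npas3-/-, and Col3a1 had 18.9 and 29.7 CPM against 5.87 and 6.86 CPM. Like Igf2, both were highest in WT replicate 2, whereas the more abundant Col1a1 and Col1a2 were highest in WT replicate 1 (114 and 228 CPM). Lum, a further marker of the list, had at most 0.641 CPM. Ttr, the defining choroid plexus gene, had 12, 0, 0 and 0 counts in the same library order. The part of these cell types in the Igf2 values was not tested.

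H19 (ENSMUSG00000000031.16, 142575529 to 142578143) had 7.51 and 7.70 CPM in WT and 5.37 and 11.1 CPM in Npas3-/-. The Npas3-/- libraries lay on both sides of the WT libraries, and the log2 fold change of 0.12 (SE 0.42; adjusted p = 0.852) turned to -0.69 (SE 0.36; adjusted p = 0.273) with the correction. H19 lies 72.6 kb from Igf2, and per kilobase of exon its level was 50.1 and 6.28 times that of Igf2 in WT and 207 times in Npas3-/- replicate 1, with 0 Igf2 counts in the other. Cdkn1c (ENSMUSG00000037664.13, 143458339 to 143461050) had 9.39 and 4.18 CPM in WT and 9.77 and 13.7 CPM in Npas3-/-. Both Npas3-/- libraries were above WT, the nearer one by a small margin, and the log2 fold change of 0.79 (SE 0.47; adjusted p = 0.237) became -0.18 (SE 0.34; adjusted p = 0.767) with the correction. The uncorrected value rested on single libraries: Cdkn1c was at 1.47 and called higher without WT replicate 1 (adjusted p = 0.0460), at 0.30 without WT replicate 2 and at 0.53 without Npas3-/- replicate 2. Of the 8 other imprinted genes listed for this region, 0 passed in either fit. The tetraspanin gene Cd81, the most abundant of them, had 1023 ± 17.1 CPM in WT and 1512 ± 80.04 CPM in Npas3-/- (SD, n = 2; adjusted p = 0.0852), and a corrected log2 fold change of -0.091. The lipid transfer protein gene Osbpl5 had 65.9 ± 13.9 and 78.0 ± 1.48 CPM, Tssc4 35.1 ± 21.1 and 39.3 ± 8.37 CPM and the transporter gene Slc22a18 3.61 ± 0.509 and 4.93 ± 0.582 CPM (SD, n = 2). With the correction these 3 turned from higher to lower in Npas3-/-, at -0.16 (Osbpl5), -0.87 (Tssc4) and -0.58 (Slc22a18). The transcription factor gene Ascl2 and the antisense RNA Kcnq1ot1 had log2 fold changes of -0.32 and -1.07 (corrected -1.504 and 1.46), and Phlda2 and Kcnq1, at most 24 and 7 counts in any library, were not tested.

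Ndn encodes necdin, a MAGE family protein that restrains proliferation and promotes neuronal differentiation, and it lies in the chromosome 7 region whose human counterpart is lost in Prader-Willi syndrome. Ndn (ENSMUSG00000033585.5, 62346569 to 62350262, a single exon) had 153 and 115 CPM in WT and 199 and 253 CPM in Npas3-/-. Both Npas3-/- libraries exceeded both WT libraries, from 134 ± 27.1 to 226 ± 38.4 CPM (SD, n = 2), a log2 change of 0.76 (SE 0.24; adjusted p = 0.0625) that did not pass. With the correction Ndn rose, at a log2 change of 2.22 (SE 0.32; adjusted p = 0.0251). The median log2 fold change was -1.83 over the 1734 genes with 42% to below 45% transcript GC, where 68.5% were called lower, and Ndn has 44.5%. The RefSeq window of Ndn (62348027 to 62348326) lies inside the exon used here, so that the annotations place its start differently. The GC content and length taken for Ndn, in the correction and per kilobase, are therefore uncertain. The corrected call was lost without Npas3-/- replicate 1, without Npas3-/- replicate 2 and with the replicate block in the same fit (adjusted p = 0.0747). In these settings every call of the corrected fit was lost, so that the losses are not particular to Ndn. The direction of Ndn held in all 18 alternatives.

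Snrpn, a splicing factor gene of the same region, resembled Ndn in this respect. It had 56.03 ± 7.96 CPM in WT and 68.7 ± 2.16 CPM in Npas3-/- (SD, n = 2), with both Npas3-/- libraries above WT, a fitted log2 fold change of 0.30 (adjusted p = 0.301) and a corrected value of 1.13, at which it rose (adjusted p = 0.0299). Snrpn overlaps Snurf, which had at most 9 counts. Mkrn3 and Peg12 had log2 fold changes of -0.47 (adjusted p = 0.458) and -0.069 (adjusted p = 0.896), or -0.50 and -0.78 with the correction, and Magel2, the closest relative of Ndn, had at most 25 counts in any library. Ube3a, a ubiquitin ligase gene that is maternally expressed in neurons, had 563 and 2889 counts in WT and 252 and 59 in Npas3-/- (log2 fold change -3.29, SE 0.99; adjusted p = 0.0533), and -0.24 (adjusted p = 0.759) with the correction. It is overlapped on the other strand by 5624 exonic bases of other models, so that reads may be shared where strand was not used in counting.

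**Figure D2:**
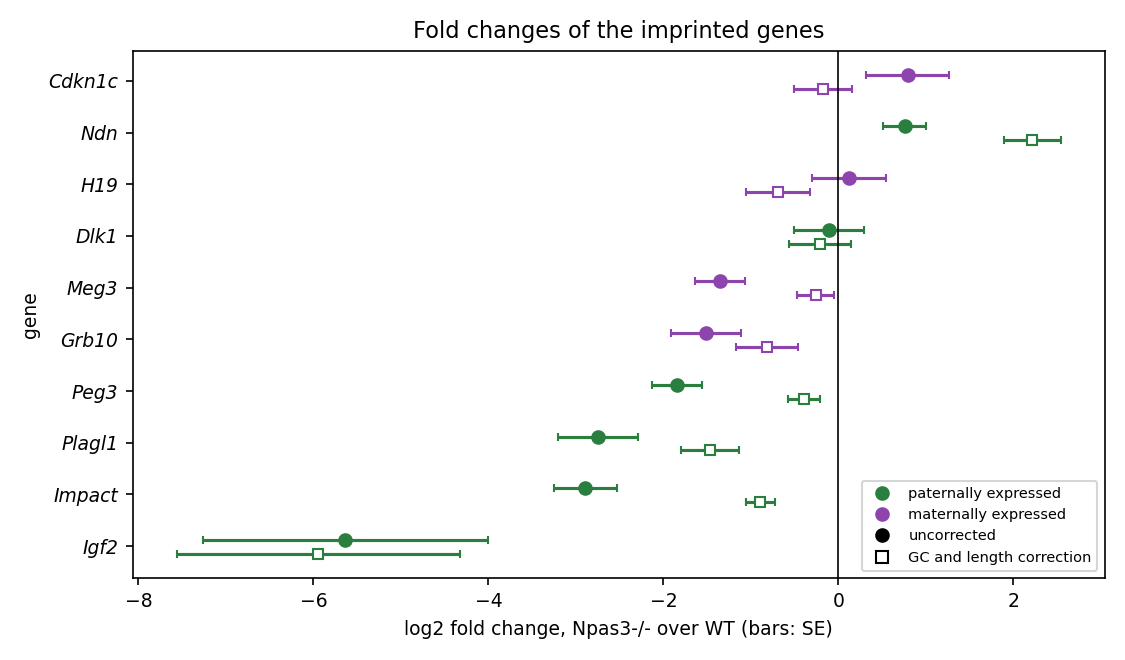
Log2 fold change of each imprinted gene, Npas3-/- over WT, with its standard error; filled circles are the uncorrected fit and open squares the fit with the GC and length correction (green, paternally expressed; purple, maternally expressed). The squares of Meg3, Grb10, Peg3, Plagl1 and Impact lie nearer to 0 than their circles, while that of Ndn moved from 0.76 to 2.22.

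The members differed in transcript composition, and their fold changes were set against it. GC content ran from 42.1% (Impact), 44.5% (Ndn), 46.4% (Plagl1), 46.8% (Peg3), 48.5% (Grb10) and 49.2% (Meg3) to 53.6% (Dlk1), 55.8% (H19 and Igf2) and 59.4% (Cdkn1c). The 5 of the 6 members below 50% GC other than Ndn fell, and of the 4 members above it only Igf2 fell. Across the 10 genes the Spearman correlation of log2 fold change with GC content was 0.309, and across 14356 tested genes of at least 1 CPM it was 0.730; genes of one library share its depth and composition and are not replicates. Among genes with 45% to below 48% GC, the band of Plagl1 and Peg3, the median log2 fold change was -0.92. In the band from 48% to below 51%, that of Grb10 and Meg3, it was -0.10 and 17.7% were called lower. Below 42% GC the median was -2.51, and in the band of Dlk1 (51% to below 54%) it was 0.43. In the band of H19 (54% to below 57%) it was 0.68, with 1.00% of genes called lower. The transcript of Igf2 has a GC content in that band too, but Igf2 averaged below 1 CPM and is not among its genes. Replicates of one genotype also differed: the log2 ratio of WT replicate 2 to WT replicate 1, on the log2(CPM + 2) scale, was 1.13 for Plagl1, 0.86 for Impact, -0.95 for Grb10 and -0.88 for Cdkn1c.

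**Figure D3:**
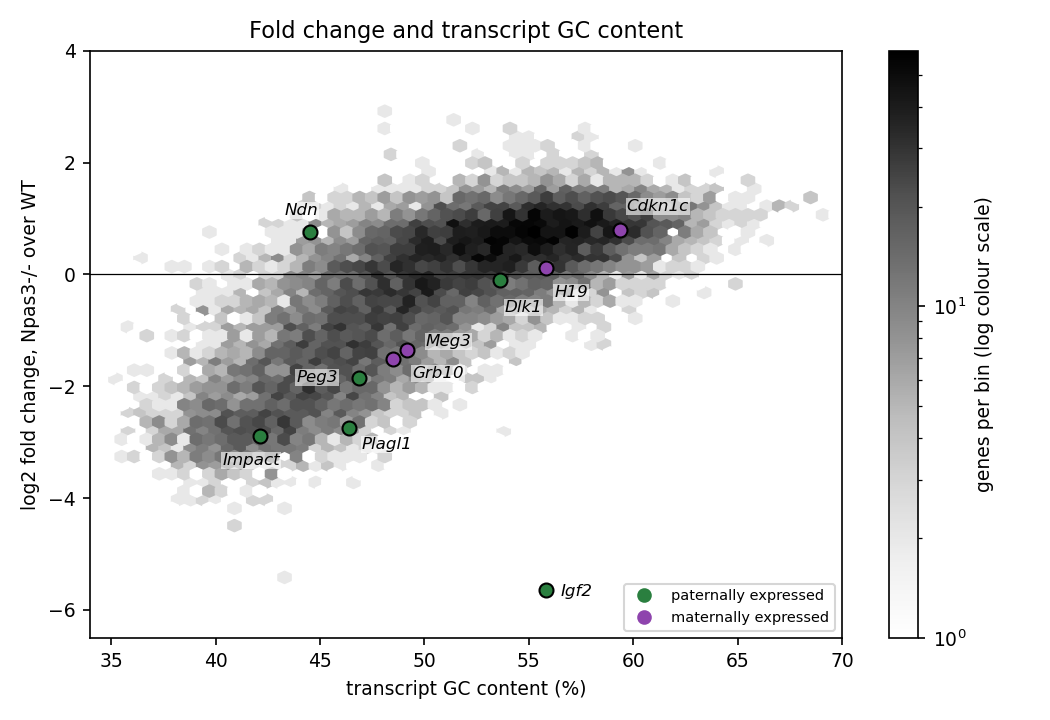
Log2 fold change (Npas3-/- over WT) against transcript GC content in percent for tested genes of at least 1 CPM, as grey bins whose darkness gives the number of genes on a log scale, with the imprinted genes as coloured points; 42 of the 14356 genes lie outside the drawn range. Most imprinted genes lie within the sloping cloud, with Ndn along its upper and Igf2 far below its lower edge. Igf2 averaged below 1 CPM, so that it is not among the binned genes.

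Paternally and maternally expressed members were compared next. Of the 6 paternally expressed genes 4 fell and 0 rose, the median of their log2 fold changes being -2.30. Of the 4 maternally expressed genes 2 fell and 0 rose, with a median of -0.62. Among all tested genes 21.5% were called lower and 11.6% higher. The paternal count and median include Igf2, which passed the filter on low counts through WT alone. Igf2 did not pass when its reads were summed with those of the overlapping model. The classes also differed in composition, with a median transcript GC content of 46.6% for the paternally and 52.5% for the maternally expressed members. With the correction the medians were -0.64 and -0.47. Per kilobase of exon, the paternally expressed members made up 78.9% and 87.1% of the summed level of the 10 genes in WT and 85.7% and 84.5% in Npas3-/-, overlapping ranges. Ndn supplied 66.2% and 44.02% of the paternal sum in WT and 90.1% and 94.0% in Npas3-/-. Without Ndn the paternal share was 55.8% and 79.1% in WT and 37.3% and 24.7% in Npas3-/-, ranges that overlap no longer. Ndn was the only paternally expressed member with a positive log2 fold change, so that leaving it out favours a lower share in Npas3-/-. These shares are descriptions over chosen genes and were not tested.

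The order of levels per kilobase of exon differed between the genotypes. In WT, Ndn led at 36.2 ± 7.35 CPM per kilobase, before Impact (13.5 ± 5.68), Plagl1 (12.8 ± 6.87), Grb10 (5.97 ± 2.80), Cdkn1c (3.33 ± 1.81), Peg3 (3.12 ± 0.208), H19 (3.09 ± 0.0548), Meg3 (1.18 ± 0.122), Dlk1 (0.598 ± 0.131) and Igf2 (0.280 ± 0.309; SD, n = 2 throughout). From Impact to H19, and from Dlk1 to Igf2, neighbours in this order differed by less than the sum of their SDs. In Npas3-/- Ndn stood at 61.2 ± 10.4 and was followed by Cdkn1c (5.76 ± 1.37), H19 (3.35 ± 1.66), Grb10 (2.09 ± 0.518), Plagl1 (1.91 ± 0.575), Impact (1.81 ± 0.138), Peg3 (0.868 ± 0.232), Dlk1 (0.556 ± 0.131), Meg3 (0.463 ± 0.0929) and Igf2 (0.00527 ± 0.00746). There the same held for neighbours from Cdkn1c to Impact and from Peg3 to Meg3. Taking the longest transcript in place of all exons raised Grb10 to 10.7 and Peg3 to 4.79 in WT, above Cdkn1c at 3.57.

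By the distance between centred log2(CPM + 2) values of the 4 libraries, the genes nearest in pattern to Meg3 among 11030 of at least 5 CPM were Mindy3, C2cd5 and Suclg2 (distances 0.0304, 0.0521 and 0.0601). Those nearest to Igf2 were Cetn4, Pisd-ps2 and Dubr (distances 0.0683, 0.0752 and 0.105), where the pseudocount of 2 flattens the low Igf2 values. Cetn4 had 10.1, 24.2, 9.31 and 8.73 CPM in WT replicates 1 and 2 and Npas3-/- replicates 1 and 2.

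Other imprinted genes were followed in a list of 47, of which 42 had a count and 35 were tested. Of those tested 2 rose and 6 fell, or 5.71% and 17.1%, both below the 11.6% and 21.5% of all tested genes, and their log2 fold changes had a median of -0.34. Both genes that fell among the 19 tested with paternal expression did so in both fits. Peg10, a retrotransposon-derived gene needed in the placenta, fell from 126 ± 23.04 to 21.7 ± 8.16 CPM (log2 fold change -2.54, adjusted p = 0.0130; corrected -1.35, adjusted p = 0.0368). Mest, a hydrolase family gene and the most abundant of the list per length after Cd81, fell from 907 ± 108 to 354 ± 58.8 CPM (log2 fold change -1.36, adjusted p = 0.0174; corrected -0.85, adjusted p = 0.0443). Mest and Copg2 overlap by 912 exonic bases on opposite strands, and Copg2, a coatomer gene, fell too, from 111 ± 14.9 to 58.9 ± 0.0916 CPM (log2 fold change -0.91, adjusted p = 0.0265), but stood at 0.69 with the correction (adjusted p = 0.0553). Sgce, the neighbour of Peg10, had 52.8 ± 4.56 and 47.5 ± 0.350 CPM (adjusted p = 0.572), and a corrected log2 fold change of 0.42 (adjusted p = 0.140).

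Of the 16 tested genes listed as maternally expressed 4 fell and 2 rose, or 25.0% and 12.5%, near the 21.5% and 11.6% of all tested genes. Beside Rian and Copg2, the fallers were Zim1, a zinc finger gene next to Peg3 (from 1.96 ± 1.11 to 0.113 ± 0.00583 CPM, log2 fold change -4.10, adjusted p = 0.0175), and Ppp1r9a, which encodes the actin-binding neurabin (from 20.3 ± 7.16 to 3.28 ± 1.49 CPM, log2 fold change -2.63, adjusted p = 0.0184). Neither passed with the correction, at -1.58 (adjusted p = 0.137) and -0.80 (adjusted p = 0.110). Zim1, with 104 and 257 counts in WT and 9 and 9 in Npas3-/-, passed the filter on low counts through its WT counts alone. Usp29, the paternally expressed gene that starts in the Peg3 window, had at most 81 counts in any library (log2 fold change -1.14, adjusted p = 0.264; corrected 1.09), and Zim3 had 0 in all 4, which allows up to 3 counts in each. The genes that rose, named after their values were seen, were Commd1 and Trappc9. Commd1, a copper and NF-kB regulator whose exons overlap Zrsr1, rose from 29.9 ± 10.7 to 76.1 ± 12.98 CPM (log2 fold change 1.35, adjusted p = 0.0306; corrected 2.76, adjusted p = 0.0252), and Trappc9, a trafficking gene, from 86.2 ± 5.87 to 135 ± 0.435 CPM (log2 fold change 0.65, adjusted p = 0.0461; corrected 0.42, adjusted p = 0.114). All values are means ± SD of n = 2. The medians were -0.47 for the genes listed as paternally and -0.16 for those listed as maternally expressed, and -0.12 and -0.13 with the correction. Whether each listed gene is imprinted in these cells was not measured. With the correction 2 rose (Snrpn and Commd1) and 2 fell (Peg10 and Mest).

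**Figure D4:**
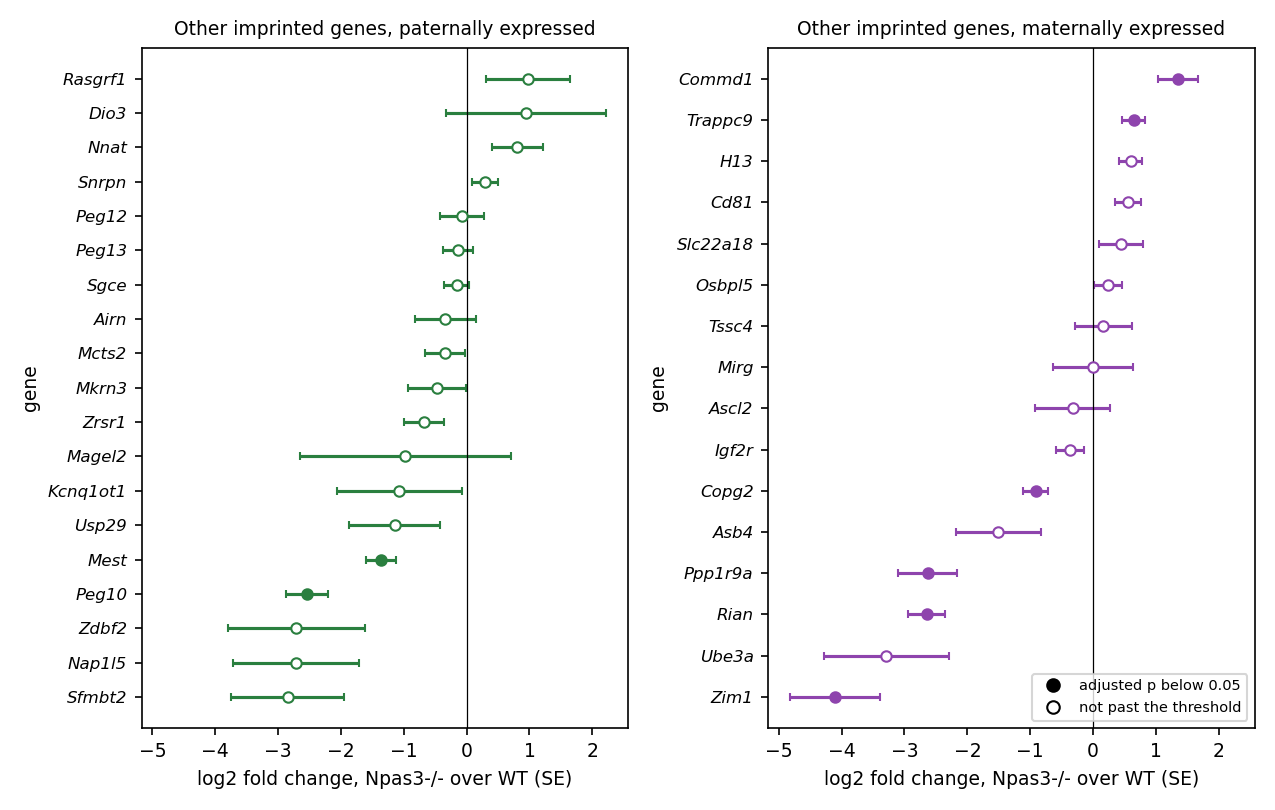
Log2 fold change, Npas3-/- over WT, with standard error for the tested genes of the wider imprinted list, in panels for paternally and maternally expressed genes; filled points passed an adjusted p below 0.05 in the uncorrected fit. Filled points run from Zim1 at -4.10 to Commd1 at 1.35. Zim1 passed the filter on low counts through its WT counts alone.

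Genes of the insulin-like growth factor axis, in which Igf2 and Grb10 act, were followed by role. Igf2 signals through the receptor Igf1r, is cleared by the imprinted Igf2r and is held by secreted binding proteins. Of 22 tested 5 rose and 6 fell, or 22.7% and 27.3% against 11.6% and 21.5% of all tested genes, and the median of their log2 fold changes was -0.38. Igf1, the other ligand, had 1.02 ± 0.418 CPM in WT and 0.387 ± 0.206 CPM in Npas3-/- (adjusted p = 0.180; corrected log2 fold change 1.00), and Ins2 had 0 counts in all libraries. Of the receptors, the insulin receptor gene Insr fell from 67.2 ± 4.44 to 28.3 ± 0.653 CPM (log2 fold change -1.25, adjusted p = 0.0157), but with the correction its value turned to 0.29 (adjusted p = 0.426), while Igf1r (136 ± 8.52 and 103 ± 12.96 CPM; adjusted p = 0.169) and Igf2r (218 ± 9.53 and 169 ± 36.9 CPM; adjusted p = 0.252) did not pass and turned to 0.60 and 0.23 with the correction.

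Of the binding proteins 4 of 8 tested rose (Igfbp2, Igfbp4, Igfbp7 and Igfbpl1) and 0 fell. Their median transcript GC content was 57.3%, and of tested genes of at least 1 CPM with 57% GC or more 35.8% were called higher and 0.755% lower. Igfbp2, the most abundant gene of the list per length, had 7443 and 4374 CPM in WT and 12694 and 17145 CPM in Npas3-/-. It rose from 5909 ± 2170 to 14919 ± 3147 CPM (log2 fold change 1.34, adjusted p = 0.0411), its transcript has 62.1% GC, and the corrected value was 0.19 (adjusted p = 0.546). Igfbp4 rose from 119 ± 3.87 to 249 ± 21.6 CPM (log2 fold change 1.06, adjusted p = 0.0184; corrected 0.70, adjusted p = 0.0563), and Igfbp3, next in abundance, had 4250 ± 561 and 4882 ± 123 CPM (adjusted p = 0.539; corrected log2 fold change -0.25). With the correction 0 binding proteins passed. The receptor adaptor gene Irs1 fell from 156 ± 9.05 to 50.8 ± 7.98 CPM (log2 fold change -1.62, adjusted p = 0.0130; corrected -0.86, adjusted p = 0.0303). The adaptor gene Shc1 rose from 92.7 ± 15.8 to 205 ± 5.12 CPM (log2 fold change 1.14, adjusted p = 0.0192; corrected 0.83, adjusted p = 0.0353). Igf2bp2 and Igf2bp3, which encode proteins that bind Igf2 mRNA, both fell, Igf2bp3 from 8.48 ± 1.13 to 2.30 ± 0.845 CPM (log2 fold change -1.88, adjusted p = 0.0259; corrected -0.62, adjusted p = 0.261). The binding protein protease gene Pappa2 fell from 6.55 ± 0.872 to 1.09 ± 0.439 CPM (log2 fold change -2.59, adjusted p = 0.0177; corrected -1.41, adjusted p = 0.0553). With the correction Irs1 and Igf2bp2 fell and Shc1 rose.

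**Figure D5:**
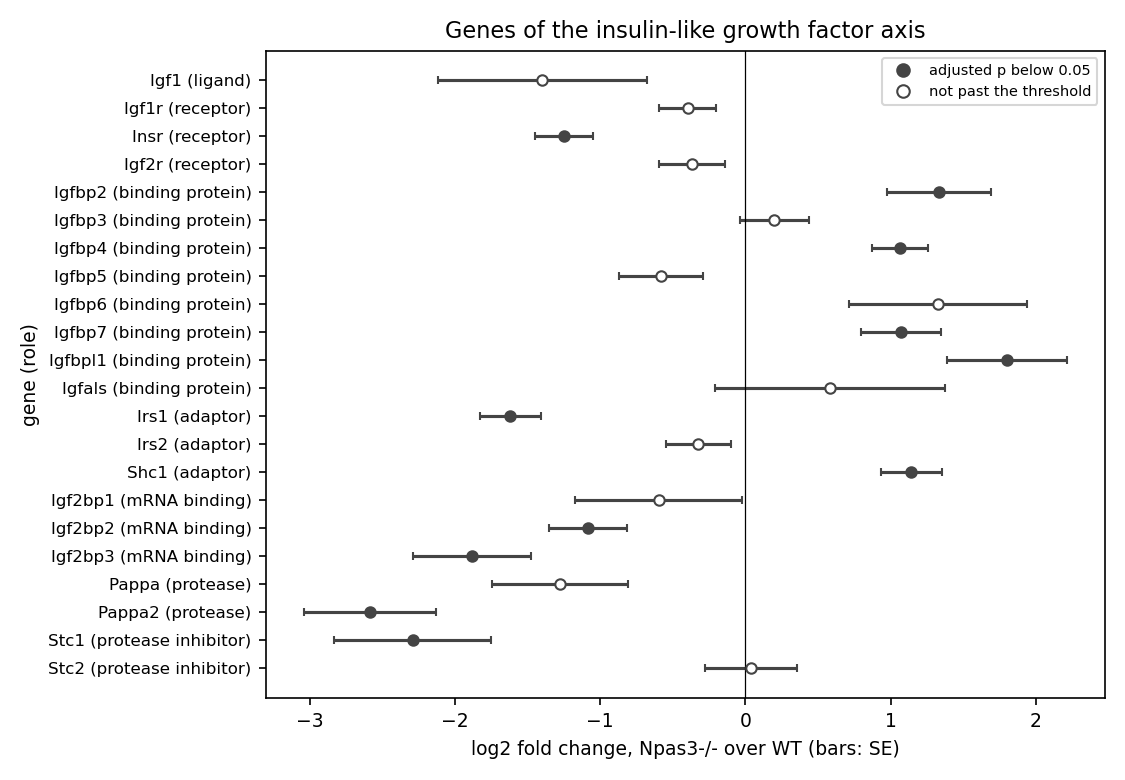
Log2 fold change, Npas3-/- over WT, with standard error for the tested genes of the insulin-like growth factor axis, ordered by role; filled points passed an adjusted p below 0.05 in the uncorrected fit. The filled binding proteins lie between 1.06 and 1.80, and the filled mRNA-binding and protease genes below 0.

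Genes that set or maintain imprints, such as DNA methyltransferases and the zinc finger proteins that protect methylated control regions, made up the last list. Of 20 tested 1 rose and 10 fell, against 11.6% and 21.5% of all tested genes. Their median transcript GC content was 46.1%, in a band where 44.99% of tested genes of at least 1 CPM were called lower, and the median of their log2 fold changes was -1.29. The maintenance methyltransferase gene Dnmt1 had 159 ± 57.02 CPM in WT and 144 ± 20.4 CPM in Npas3-/- (SD, n = 2; adjusted p = 0.723), and the genotypes overlapped also for its partner Uhrf1 (129 ± 66.6 and 165 ± 7.47 CPM; adjusted p = 0.496). Zfp445, which protects imprints, fell from 56.4 ± 40.8 to 6.94 ± 1.18 CPM (log2 fold change -3.02, adjusted p = 0.0204), and Ctcf, the insulator protein that binds the H19 and Igf2 control region, from 66.4 ± 3.29 to 31.8 ± 1.18 CPM (log2 fold change -1.06, adjusted p = 0.0193). The Polycomb genes Rnf2 and Eed, the methylcytosine oxidase gene Tet2 and the chromatin gene Smchd1 fell as well, at log2 fold changes of -2.68, -1.52, -3.46 and -2.77 (adjusted p between 0.0158 and 0.0243). With the correction they stood at -0.52 (Rnf2), -1.27 (Eed), -1.56 (Tet2) and -0.26 (Smchd1), of which Eed passed. The most abundant members per length were Trim28, a co-repressor gene (237 ± 71.9 and 410.0 ± 29.9 CPM; adjusted p = 0.0721), and the histone methyltransferase gene Ehmt2, which rose from 188 ± 44.9 to 335 ± 25.7 CPM (adjusted p = 0.0484; corrected adjusted p = 0.250). With the correction Eed fell (log2 fold change -1.27, adjusted p = 0.0334) and 0 rose, the median was -0.067, and Ctcf (-0.042) and Zfp445 (-0.75, adjusted p = 0.195) did not pass.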

How the data were processed

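RNA-seq gene counts of 4 astrocyte samples (2 WT, 2 Npas3-/-) were used. The authors deposited raw counts per gene with Ensembl identifiers. Build mm10, featureCounts, HISAT2 2.1.0 and Trimmomatic 0.3.8 are named in the submitters' processing notes; for the annotation release, strand setting and handling of shared reads, the sources used here give nothing. Symbols, positions, exon lengths and transcript GC content came from GENCODE M21 (mm10), in which 53274 of 53379 identifiers were found, and promoter windows from RefSeq (GRCm38.p6).

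The counts were tested in R 4.3.3 by the quasi-likelihood method of edgeR 4.0.16, with TMM scaling and filterByExpr (minimum count 10), WT against Npas3-/- with no covariate, 2 residual degrees of freedom, Benjamini-Hochberg adjustment over all 18838 tested genes and a threshold of 0.05. The SE is the log2 fold change over the square root of F. CPM used TMM-scaled library sizes, and levels per kilobase the union of exons. Floors of 3 counts cover counting error only. The correction fitted, per library, natural splines (6 degrees of freedom each) in GC content and log2 length to deviations of log2 CPM, over genes of at least 1 CPM, as an offset. The named genes were the 10 members, Npas3, the 6 with the smallest p and the 2 with the highest level per length in each list, the listed neighbours of members, and the 3 genes nearest in pattern to Igf2 and Meg3. The members and lists were chosen with earlier results of these data known. Alternatives were DESeq2 size factors, DESeq2 1.42.0, limma-voom (limma 3.58.1), no filter, a minimum of 5 CPM, an adjusted p below 0.01, a replicate block, the correction and each library left out; a crossed block and the summed Igf2 locus were added after the data were seen. The fits were tested on simulated data. Some marker values are not reported here.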

Additional observations from a re-analysis of the deposited data

How the results depend on the processing

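The directions of Meg3, Peg3, Plagl1, Grb10, Impact, Igf2 and Ndn held in every alternative in which each was fitted (18 or 19 per gene). H19, with a log2 fold change of 0.12, was at -0.69 with the GC and length correction, -0.75 with the correction and replicate block, between -0.50 (without Npas3-/- replicate 2) and 0.55 with a library left out, and -0.84, -0.54, -0.31 and -1.18 where the correction left out WT replicate 1, WT replicate 2, Npas3-/- replicate 1 and Npas3-/- replicate 2. Cdkn1c was at -0.18 with the correction, -0.12 with the correction and replicate block, and -0.54, -0.11 and -0.25 where the correction left out WT replicate 2, Npas3-/- replicate 1 and Npas3-/- replicate 2. Dlk1 was at 0.12 without WT replicate 1 or Npas3-/- replicate 2, in a range from -0.37 with a library left out.

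The test called 6232 genes, 3997 with no filter on low counts, 2560 with the replicate block, 1576 with the correction, and 0 with the correction and replicate block (unadjusted p below 0.05 for 4276 genes) or at an adjusted p below 0.01. Leaving out 1 library gave 0 (without Npas3-/- replicate 2) to 5832 (without WT replicate 1); with the correction it gave 1816 without WT replicate 1, 534 without WT replicate 2 and 0 without either Npas3-/- library. Members called were 6 lower and 0 higher; 5 lower with the summed Igf2 reads, with a minimum of 5 CPM (Igf2 not tested) or by limma-voom (Igf2 adjusted p = 0.178); 4 lower with no filter (Igf2 0.0792 and Grb10 0.0652 lost); 1 lower and 1 higher with the correction, also with the summed Igf2 reads; 0 lower with the correction and replicate block or at an adjusted p below 0.01; 1 higher by DESeq2; and 0 to 5 lower and 0 to 1 higher with a library left out. With the replicate block 4 members fell, without Igf2 and Meg3. Same-numbered samples deviated in opposite directions (r = -0.334 over 14365 genes), and a crossed block called 7670 genes, with 6 members lower and 1 higher and 2 imprint maintenance genes higher.

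Other imprinted genes called higher were 0 with no filter, with the replicate block, with the correction and replicate block or at the stricter threshold, 4 by DESeq2 and 0 to 2 with a library left out; those lower were 10 by DESeq2, 2 with the correction, 0 with the correction and replicate block or at the stricter threshold, and 0 to 8 with a library left out. IGF axis genes called higher were 3 with no filter, 1 with the replicate block, 1 with the correction, 0 with both or at the stricter threshold, and 0 to 4 with a library left out; those lower were 3 with the replicate block, 2 with the correction, 0 with both or at the stricter threshold, and 0 to 6 with a library left out. Imprint maintenance genes called higher were 0 with no filter, the replicate block, the correction, both or the stricter threshold, 2 by DESeq2 and 0 to 3 with a library left out; those lower were 5 with the replicate block, 1 with the correction, 0 with both or at the stricter threshold, and 0 to 11 with a library left out. The cause of these shifts was not tested. With 2 libraries per genotype the spread is poorly known, and Igf2 is limited by its depth.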
